A study of Mus musculus with 4 samples.

Results

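Fatty acid synthesis and desaturation was followed through 9 genes, taken by symbol from the count tables of a comparison of wild-type and Pdk4-deficient mouse CD4+ T cells. They were the citrate-cleaving enzyme Acly, the carboxylase Acaca, the synthase Fasn, the elongase Elovl6, the desaturases Scd1 and Scd2, and the regulators Srebf1, Srebf2 and Insig1. All 9 were among the 23238 symbols of the tables, and all 9 passed the filter on low counts that left 11464 genes for testing. The study asked how gene expression differs between the genotypes. Wild-type and PDK4 KO libraries, 2 of each, came from mice of the C57BL/6j strain. In both genotypes naive CD4+ T cells of spleen and lymph nodes had been isolated with magnetic beads, grown in medium with serum, and activated through CD3 and CD28 in the presence of IL-2 over 48 hours. RNA was read from the 3' end with the Lexogen QuantSeq kit. The labels give neither the allele, the age or sex of the mice, nor whether replicates came from separate animals or cultures. The p-values therefore weigh genotype against library-to-library variation that could be purely technical. In bulk RNA, fewer cells of a type and less RNA per cell cannot be told apart.

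Cells that divide need fatty acids for new membranes, and activated T cells make part of them from glucose. Pyruvate enters the mitochondrion, the pyruvate dehydrogenase complex turns it into acetyl-CoA, and citrate made from that acetyl-CoA can leave again for the cytosol. Acly cleaves the exported citrate back to acetyl-CoA, Acaca carboxylates this to malonyl-CoA, Fasn joins the units into palmitate, Elovl6 lengthens the chain, and the Scd enzymes place a double bond in it. The membrane-bound factors encoded by Srebf1 and Srebf2 switch these genes on when sterols are low, and Insig1 holds them back in the endoplasmic reticulum. Pdk4, the gene removed in the knockout, encodes a kinase that inhibits pyruvate dehydrogenase, and so stands upstream of the citrate that Acly uses.

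Depth ranged from 8837810 to 9739624 counts per library, and a floor of 3 counts corresponded to 0.308 to 0.339 CPM, the count scaled to the library total. Pdk4 itself had 1 and 0 counts in the wild-type libraries, and the knockouts had 0 and 2. All 4 values were under the floor, so no difference could be detected at this depth, and the counts do not check the labels. CD4 T cell markers were present in all libraries, with Cd4 at 250 to 269 CPM, and of 7 tested 1 rose, the receptor Cd5, and 2 were lower at an unadjusted p under 0.05, the receptor chains Cd3d (log2 fold change -0.16, adjusted p = 0.273) and Cd3g (-0.28, adjusted p = 0.359). Of 10 B cell markers, 9 were tested and 8 fell, and their summed level was 127 and 128 CPM in wild type against 25.8 and 27.1 CPM in knockout, with Pax5 at 0 in all 4 libraries. Of 9 tested CD8 T and NK cell markers 1 fell, the granule protease Gzma, and the summed level of the 10 listed was 419.5 and 434 CPM against 269 and 253 CPM. Gzma held most of that difference. The sums without it, taken after its values were seen, overlapped, at 200.1 and 215 CPM against 193 and 202 CPM. Nkg7, at 111 to 134 CPM, was the highest marker in them. At an unadjusted p under 0.05, 3 of these 9 tested markers were lower and 0 higher. Beside Gzma these were Cd8a (log2 fold change -2.52, adjusted p = 0.119) and Klrb1c (-2.13, adjusted p = 0.0887), both at 46 counts or fewer. Of 5 tested myeloid markers 1 fell, the receptor chain Fcer1g, with sums over the 10 listed of 36.2 and 29.99 CPM against 13.6 and 28.9 CPM. Markers of stroma and endothelium summed to 22.9 to 28.5 CPM, with 0 of 2 tested called by edgeR and 1 at an unadjusted p under 0.05. Adipocyte markers, of a cell type that surrounds lymph nodes and makes fatty acids, summed to 0.528 to 3.30 CPM, with Adipoq, Plin1, Lep and Retn at 0 in all libraries and none of the 8 tested.

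No gene of the 9 passed the test between genotypes, and the fold of knockout over wild type lay between 0.899 and 1.05 for 6 of them. With edgeR's quasi-likelihood test and p-values adjusted by Benjamini-Hochberg over all tested genes, 0 of the 9 rose and 0 fell at an adjusted p under 0.05, where 2.66% of all tested genes did (1.45% rose and 1.21% fell). DESeq2 and limma-voom, which called 2.05% and 2.81% of all genes, also called 0 of the 9. At an unadjusted p under 0.05, 3 of the 9 were lower in knockout (Acly, Scd1 and Insig1) and 0 higher, against 6.68% of all tested genes lower and 13.5% in either direction. The same 3 genes were the members whose knockout libraries both lay below both wild-type libraries. Among all tested genes 21.9% had that separation, 21.5% had the opposite one, and 43.4% had either. The median log2 fold change of the 9 was -0.08, and that of all tested genes was 0.00041.

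**Figure D1:**
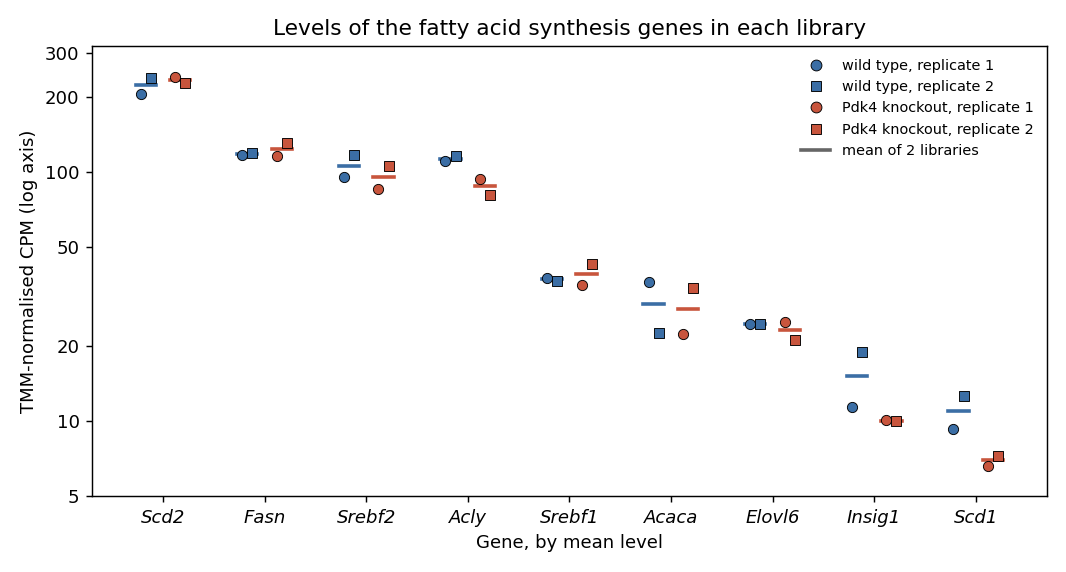
TMM-normalised CPM on a log axis for each of the 9 genes in each library, ordered by mean level; circles are replicate 1, squares replicate 2, and lines the mean of the 2 libraries of a genotype. Scd2 stands highest at 206 to 240 CPM and Scd1 lowest at 6.64 to 12.6 CPM, and only Acly, Scd1 and Insig1 have both knockout points below both wild-type points.

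The 9 genes spanned a wide range of levels, in CPM scaled with TMM factors. Because the kit reads transcript ends, a CPM here is not divided by gene length, although priming and mapping can still differ between genes. Scd2 led at a mean of 228 CPM over the 4 libraries, and its range did not touch that of the next gene. Fasn (121 CPM), Srebf2 (101 CPM) and Acly (100.2 CPM) followed, each overlapping its neighbour in that order. Srebf1 (38.0 CPM), Acaca (28.8 CPM) and Elovl6 (23.8 CPM) formed the next run, again with overlapping neighbours and with a gap to Acly above and to Insig1 below. Insig1 (12.6 CPM) and Scd1 (8.95 CPM) were lowest and overlapped. Scd2 was at 25.5 times the mean level of Scd1. Taken as a sum, the 9 genes held 647 and 705 CPM in wild type and 634 and 660 CPM in knockout, or 676 ± 41.1 and 647 ± 18.0 CPM (SD, n = 2 each), and the libraries of the genotypes overlapped.

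Acly (chromosome 11, 100476353 to 100528000, GRCm38), the enzyme that links exported citrate to lipid synthesis, was the member nearest to the threshold. It was at 110 and 116 CPM in wild type and at 94.0 and 80.8 CPM in knockout, from 972, 1095, 920 and 743 counts. Both knockout libraries were below both wild-type ones. The log2 fold change was -0.37 (SE 0.111, adjusted p = 0.0694 by edgeR's quasi-likelihood test), which is 0.773-fold with a 95% interval of the fit from 0.662 to 0.904. Intervals here and below come from the fit of each gene and are not adjusted for the number of genes. Acly was called with no filter on low counts (adjusted p = 0.0461, where 2.44% of genes were called) and with a stricter filter (adjusted p = 0.0368, where 3.86% were called), and over the 13 alternatives its adjusted p ran from 0.0368 to 0.41, while its log2 fold change stayed between -0.49 and -0.27. The lower B cell marker level (127 and 128 against 25.8 and 27.1 CPM in sum) was in the same libraries as the lower values of Acly, Scd1, Insig1 and, below, Dgat1, and its part in these differences was not tested.

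Acaca (chromosome 11, 84129672 to 84401651), which makes malonyl-CoA in the committed step of the pathway, differed more within genotypes than between them. It was at 36.2 and 22.6 CPM in wild type and at 22.3 and 34.2 CPM in knockout. One library of each genotype was high (wild-type replicate 1 and knockout replicate 2) and the other low, by 1.60-fold within wild type and 1.54-fold within knockout. Those gaps were larger than Poisson counting error, if each count is a separate molecule. The 95% Poisson interval was 32.4 to 40.5 CPM in wild-type replicate 1 and 19.7 to 25.8 CPM in wild-type replicate 2. The log2 fold change between genotypes was -0.06 (SE 0.213, adjusted p = 0.955), and its sign turned when the first library of either genotype was left out, to 0.32 for wild type and 0.22 for knockout.

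Fasn (chromosome 11, 120805846 to 120824547), the multi-domain synthase that releases palmitate, was among the more tightly measured members. It was at 117 and 119 CPM in wild type and at 116 and 131 CPM in knockout. The wild-type values lay inside the range of the knockout values. Its fold was 1.05, with a 95% interval from 0.907 to 1.21 (adjusted p = 0.851 by edgeR). Elovl6 (chromosome 3, 129532355 to 129638495), which extends palmitate to stearate, was at 24.4 and 24.5 CPM in wild type and at 25.0 and 21.2 CPM in knockout. These libraries overlapped too, and its fold of 0.945 had a wider interval, from 0.714 to 1.25 (adjusted p = 0.921).

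The 2 desaturases lie near each other on chromosome 19, Scd2 at 44293674 to 44306864 on the plus strand and Scd1 at 44394455 to 44407879 on the minus strand, with Scd4 between them and Scd3 on the far side of Scd2. They are close paralogues, and how reads that match several places were treated is not given in the sources used here, so each value carries that uncertainty. Scd2, a form abundant in mouse brain, was at 206 and 239 CPM in wild type and at 240 and 227 CPM in knockout. The genotypes overlapped, and its fold of 1.05 had an interval from 0.927 to 1.19 (adjusted p = 0.813), the narrowest on the log scale of the 9. Scd1, the main hepatic and adipose form, was at 9.32 and 12.6 CPM in wild type and at 6.64 and 7.28 CPM in knockout, from only 82, 119, 65 and 67 counts. Both knockout libraries were lower, and the log2 fold change of -0.65 was the most negative of the 9 with all libraries, with a wide interval from -1.31 to -0.00061 (adjusted p = 0.37). It ran from -0.85 without wild-type replicate 1 to -0.42 without wild-type replicate 2, and when replicate 1 of wild type or of knockout was left out the estimate of Insig1 was the more negative one (-0.92 against -0.85 and -0.61 against -0.59). Scd3 stood at 1.63 to 4.02 CPM and Scd4 had 3 counts or fewer in every library.

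Within a library, the ratio of Scd2 to Scd1 counts does not depend on scaling between libraries. It was 22.1 and 19.0 in the wild-type libraries and 36.1 and 31.1 in the knockouts. The ratio was higher in both knockout libraries, by 0.71 on the log2 scale, and the two-sided exact permutation test gave p = 0.333, the smallest p that 2 libraries against 2 can give. The ratio of Srebf2 to Srebf1 was 2.54 and 3.19 in the wild-type libraries and 2.42 and 2.47 in the knockouts (exact permutation p = 0.333). The ratio of Insig1 to its paralogue Insig2, another anchor of the SREBP complex, was 0.568 and 1.24 in the wild-type libraries and 0.884 and 0.541 in the knockouts (exact permutation p = 0.667), with overlap. Adjusted by Benjamini-Hochberg over these 3 ratios, the permutation p-values were 0.5, 0.5 and 0.667, and this test cannot reach a p under 0.05 with 2 libraries against 2.

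**Figure D2:**
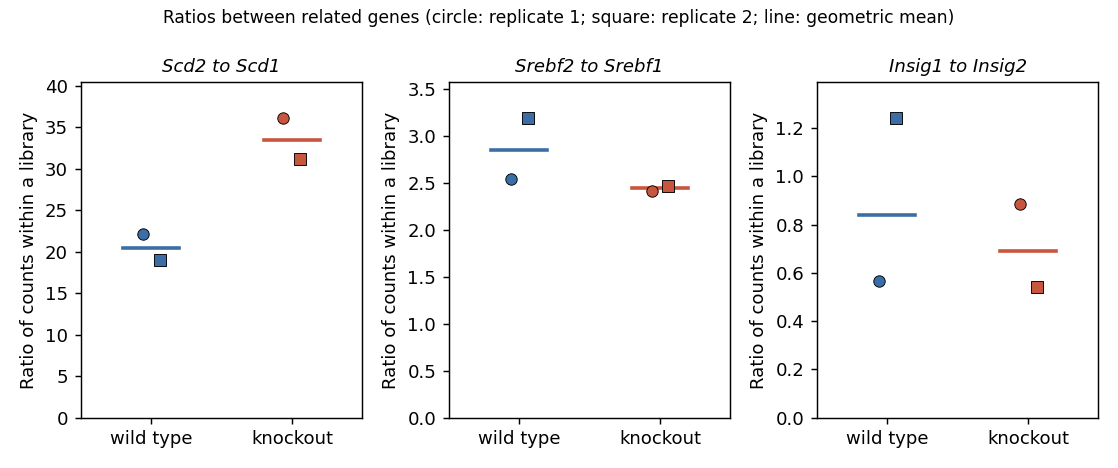
Ratio of counts within each library for Scd2 to Scd1, Srebf2 to Srebf1 and Insig1 to Insig2, on linear axes from 0; circles are replicate 1, squares replicate 2, and lines geometric means of 2 libraries. The Scd2 to Scd1 ratio is 19.0 to 22.1 in wild type and 31.1 to 36.1 in knockout, whereas the Insig1 to Insig2 ratio overlaps between genotypes.

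The regulators include both SREBP genes and the SREBP retention factor. Srebf1 (chromosome 11, 60199089 to 60222581), whose product acts mainly on fatty acid genes, was at 37.4 and 36.6 CPM in wild type and at 35.2 and 42.8 CPM in knockout. The genotypes overlapped, and the fold was 1.05 with an interval from 0.84 to 1.32 (adjusted p = 0.905). The 3' end of Srebf1 overlaps that of Rai1 on the opposite strand by 109 exonic bases, and without knowledge of strand in the counting, reads there cannot be assigned to either gene. Rai1 had 160 and 186 counts in wild type and 183 and 227 in knockout, so that both genes had their highest count in knockout replicate 2. Srebf2 (chromosome 15, 82147181 to 82205379), whose product acts mainly on sterol genes, was at 95.1 and 117 CPM in wild type and at 85.2 and 106 CPM in knockout. Replicate 2 was the higher library in each genotype, the genotypes overlapped, and the fold was 0.899 with an interval from 0.76 to 1.06 (adjusted p = 0.645).

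Insig1 (chromosome 5, 28071363 to 28078662), itself a target of the SREBP factors in many cell types, was at 11.4 and 19.0 CPM in wild type and at 10.1 and 10.0 CPM in knockout. The gap between wild-type replicate 1 and the knockouts was small, and the difference rested on wild-type replicate 2, whose 180 counts (95% Poisson interval 155 to 208) stood apart from the 100 (81.4 to 122), 99 and 92 of the others. The log2 fold change was -0.60 (SE 0.281, adjusted p = 0.341), and it was -0.18 when wild-type replicate 2 was left out and -0.92 when wild-type replicate 1 was. Insig2 had 176 and 145 counts in the wild-type libraries, against 112 and 170 in the knockouts (adjusted p = 0.76). Poisson intervals cover counting error only, and they treat each count as a separate molecule. Whether copies of a molecule were collapsed is not given in the sources used here.

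Upstream sequences were looked up because the members are textbook targets of SREBP factors, which bind with NF-Y and Sp1 partners. RefSeq windows of 300 bases on GRCm38.p6, from 250 bases before to 50 after a transcript start, were found for 7 of the 9 members, with 9 windows in all since Srebf1 has 3. Scd1 and Scd2 had none. Both strands were searched for 5 motifs. The sterol regulatory element to which SREBP factors bind was written as TCACNCCAC. A shorter form, TCACNCC, is contained in it and was added with the sequences in view. The E-box, which SREBP factors can also bind, was written as CACGTG. The box bound by NF-Y was CCAAT, and the GC box bound by Sp1 was GGGCGG. None of the 9 windows held the full element, which 1.24% of 32851 mouse windows hold. The shorter form occurred in 1 window, that of Srebf2 (15.6% of all windows), the E-box in 1, that of Insig1 (7.15%), a CCAAT box in those of Insig1, Acly, Fasn and Srebf2 and in 2 of Srebf1 (37.4%), and a GC box in those of Insig1, Acly and Srebf2 and in 2 of Srebf1 (35.7%). The windows of Acaca and Elovl6 held none of the 5 motifs. The 250 bases before the start are shown for Acly and Insig1, which were lower in both knockout libraries, and for Fasn and Srebf2, which were not, so that their letters can be compared.
Acly: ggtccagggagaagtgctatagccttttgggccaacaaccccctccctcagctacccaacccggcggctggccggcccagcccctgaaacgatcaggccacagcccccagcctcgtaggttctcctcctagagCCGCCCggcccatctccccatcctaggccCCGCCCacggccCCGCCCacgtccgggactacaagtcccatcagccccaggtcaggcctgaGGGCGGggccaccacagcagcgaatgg
Insig1: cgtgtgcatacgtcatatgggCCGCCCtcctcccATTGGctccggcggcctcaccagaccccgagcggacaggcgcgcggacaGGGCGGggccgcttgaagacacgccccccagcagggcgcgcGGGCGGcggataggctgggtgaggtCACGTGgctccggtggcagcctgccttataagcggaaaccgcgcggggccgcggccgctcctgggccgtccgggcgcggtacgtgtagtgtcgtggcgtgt
Fasn: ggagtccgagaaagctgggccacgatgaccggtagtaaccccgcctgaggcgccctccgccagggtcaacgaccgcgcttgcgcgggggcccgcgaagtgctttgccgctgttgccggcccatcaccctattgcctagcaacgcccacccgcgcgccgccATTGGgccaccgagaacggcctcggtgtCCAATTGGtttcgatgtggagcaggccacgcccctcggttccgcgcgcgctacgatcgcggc
Srebf2: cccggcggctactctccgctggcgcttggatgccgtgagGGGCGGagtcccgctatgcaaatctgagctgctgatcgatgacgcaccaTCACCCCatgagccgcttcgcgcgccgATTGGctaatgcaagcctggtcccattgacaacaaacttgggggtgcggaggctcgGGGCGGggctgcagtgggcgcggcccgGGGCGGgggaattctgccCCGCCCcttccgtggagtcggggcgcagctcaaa

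The stretches are chr11:100528001-100528250 (minus strand), chr5:28071162-28071411 (plus), chr11:120824548-120824797 (minus) and chr15:82147019-82147268 (plus), read toward the gene. Capitals mark every match. In Acly they are 4 GC boxes, and its CCAAT box lies past the start and is not shown. In Insig1 they are 3 GC boxes, a CCAAT box from position -216 relative to the start and the E-box from position -101. In Fasn they are 3 CCAAT boxes, of which the last 2 share letters on opposite strands. In Srebf2 they are 4 GC boxes, a CCAAT box and the shorter form of the sterol element, from position -162. Among these 4 genes no motif kind was held by both Acly and Insig1 and absent from both Fasn and Srebf2. Neither Acly nor Insig1 passed the test between genotypes, and 4 genes are too few to relate a motif to genotype. A match is a description of letters. Only these exact letters were searched, so a window without a match says nothing of binding at other letters in it or elsewhere.

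**Figure D3:**
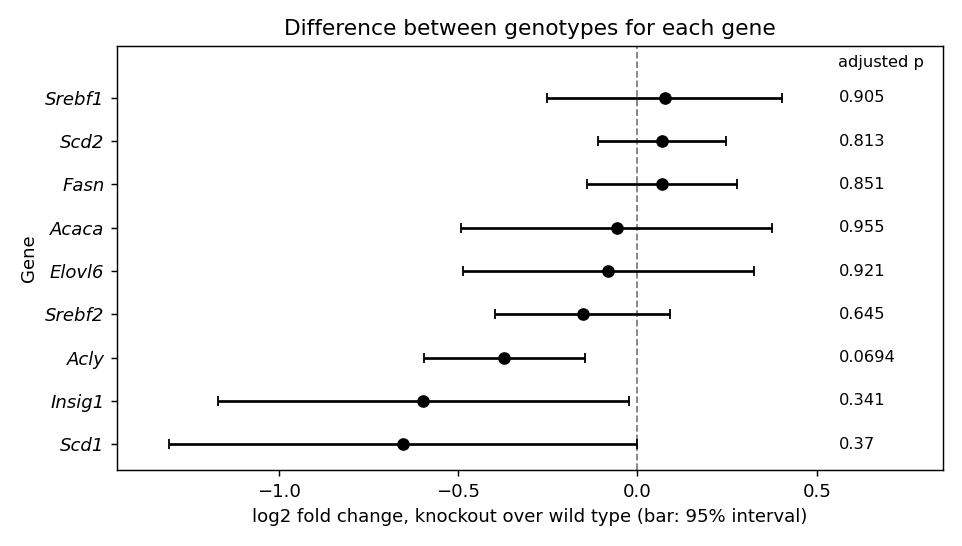
log2 fold change of knockout over wild type for each gene with its 95% interval from edgeR's fit, and the adjusted p over all tested genes at the right. Srebf1, Scd2 and Fasn lie close above 0, Acly lies at -0.37 with a narrow interval, and Insig1 and Scd1 lie lower with wide intervals.

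How far each gene could be measured differed. The standard error of the log2 fold change was 0.0875 for Scd2, 0.102 for Fasn and 0.111 for Acly, the high genes, and 0.281 for Insig1 and 0.32 for Scd1, the low ones. The estimates of Acly, Scd1 and Insig1 were negative in all 13 alternatives, and those of the other 6 genes changed sign in at least 1 of them, each time with a library left out. Leaving out knockout replicate 2 moved the median of the 9 from -0.08 to -0.27, and leaving out knockout replicate 1 moved it to -0.0058. The mean profile of the 9 genes over the libraries, centred on each gene's mean log2 CPM, was 0.03 and 0.15 in the wild-type libraries and -0.14 and -0.04 in the knockouts. The genes nearest to it, by root mean square distance over the 4 libraries, were Srsf7 (0.00791), Rpl26 (0.0137), Nrd1 (0.0139), Fkbp1a (0.014) and Psmb5 (0.0148), on the log2 scale. Of 8067 other genes at 10 CPM or more, 1569 (19.4%) lay within 0.1 of the profile. Of the 9 members only Srebf2 did (0.0971), and Scd1, at a mean of 8.95 CPM, was under the 10 CPM limit. The mean profile thus describes few of its own members, and whether their share differs from that of other genes was not tested.

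**Figure D4:**
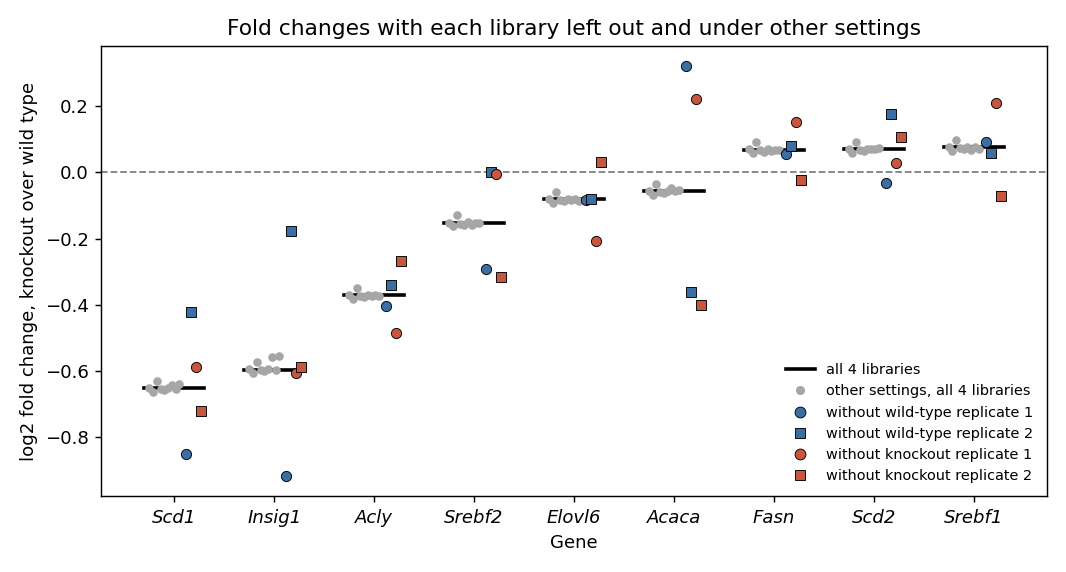
log2 fold change of knockout over wild type for each gene with all 4 libraries (black line), under other settings with all 4 libraries (grey points) and with each library left out (coloured symbols). Grey points stay near the line, whereas Acaca runs from -0.40 to 0.32 and Insig1 from -0.92 to -0.18 when a library is left out.

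Genes around the 9 in the same pathway changed in few cases, and the counts below stand beside 2.66% of all genes called. Of 18 tested genes of fatty acid supply, desaturation and elongation, 0 rose and 0 fell in edgeR, DESeq2 or limma-voom, 0 had an unadjusted p under 0.05, and the median log2 fold change was 0.11. Its 3 smallest p-values belonged to Mcat of the mitochondrial synthase system (0.45, adjusted p = 0.573), the desaturase gene Fads1 (0.32, adjusted p = 0.584) and the elongation dehydratase gene Hacd3 (0.14, adjusted p = 0.596). Of 24 tested regulators of lipogenesis, 0 rose and 0 fell by any of the 3 tools, with a median of 0.05. At an unadjusted p under 0.05 in edgeR, 2 of the 24 were higher and 0 lower, where 779 of all 11464 tested genes were higher. The smallest p-values there were those of the ubiquitin ligase gene Rnf139 (0.48, adjusted p = 0.128), the protease gene Mbtps1, whose product cuts SREBP precursors (0.26, adjusted p = 0.312), and the AMP-activated kinase subunit gene Prkab1 (0.46, adjusted p = 0.379). Rnf139 shares 1140 exonic bases with Tatdn1 on the opposite strand, and its value is uncertain.

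Further down the pathway, where fatty acids are activated and built into glycerolipids, 1 of 17 tested genes fell and 0 rose, with a median of -0.13. It was Dgat1, which makes triacylglycerol for storage. At an unadjusted p under 0.05, 2 of the 17 were lower, Dgat1 among them, and 0 higher, against 6.68% of all tested genes lower. Dgat1 was at 58.9 and 64.7 CPM in wild type and at 44.2 and 37.9 CPM in knockout, both knockout libraries being lower (log2 fold change -0.59, SE 0.141, adjusted p = 0.0139). Over the 13 alternatives its adjusted p ran from 0.00472 to 0.182, and the call was lost when the second library of either genotype was left out (0.182 for wild type and 0.176 for knockout). Hsf1, on the opposite strand with its 3' end at 76501913 next to that of Dgat1 at 76502015, had 151 and 123 counts in wild type and 185 and 152 in knockout.

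Of 22 tested genes of cholesterol synthesis, the sister branch that also draws on cytosolic acetyl-CoA, 1 rose and 0 fell, with a median of -0.13. The gene that rose was Acat2, the cytosolic thiolase that joins acetyl-CoA units. At an unadjusted p under 0.05, 3 of the 22 were lower and 1 higher, Acat2 itself, against 6.68% of all tested genes lower. Acat2 was at 141 and 163 CPM in wild type and at 199.6 and 214 CPM in knockout, both knockout libraries being higher (log2 fold change 0.45, SE 0.0931, adjusted p = 0.00327). Its adjusted p ran from 0.000238 to 0.0789 over the 13 alternatives, and the call needed both wild-type replicate 1 (0.068 when it was left out) and knockout replicate 2 (0.0789). Of 24 tested genes of beta-oxidation, the opposing pathway, 0 rose and 0 fell by any of the 3 tools, 1 was lower at an unadjusted p under 0.05 (the electron transfer flavoprotein subunit gene Etfb, -0.18, adjusted p = 0.369), and the median was -0.04. The next smallest p-values were those of Hadh (-0.19, adjusted p = 0.583) and Acaa1b (-1.26, adjusted p = 0.608), the latter at 21 counts or fewer. Etfb shares 617 exonic bases with the annotated gene Gm45233 on the same strand and Acaa1b 224 with Dlec1 on the opposite strand, so both values are uncertain. The 3' end of Prkab1 lies within the antisense gene Gm14508, with 0 shared exonic bases. Differences between these lists and the 9 genes were not tested. The other pyruvate dehydrogenase kinase genes did not pass either, with Pdk1 at 0.56 (adjusted p = 0.12), Pdk3 at 0.19 (adjusted p = 0.604) and Pdk2 at -0.36 (adjusted p = 0.889). Pdk1 was at 25.7 and 21.2 CPM in wild type and at 38.2 and 30.8 CPM in knockout, both knockout libraries being higher. Its unadjusted p in edgeR was under 0.05. Pdk2 had 28 counts or fewer in every library.

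**Figure D5:**
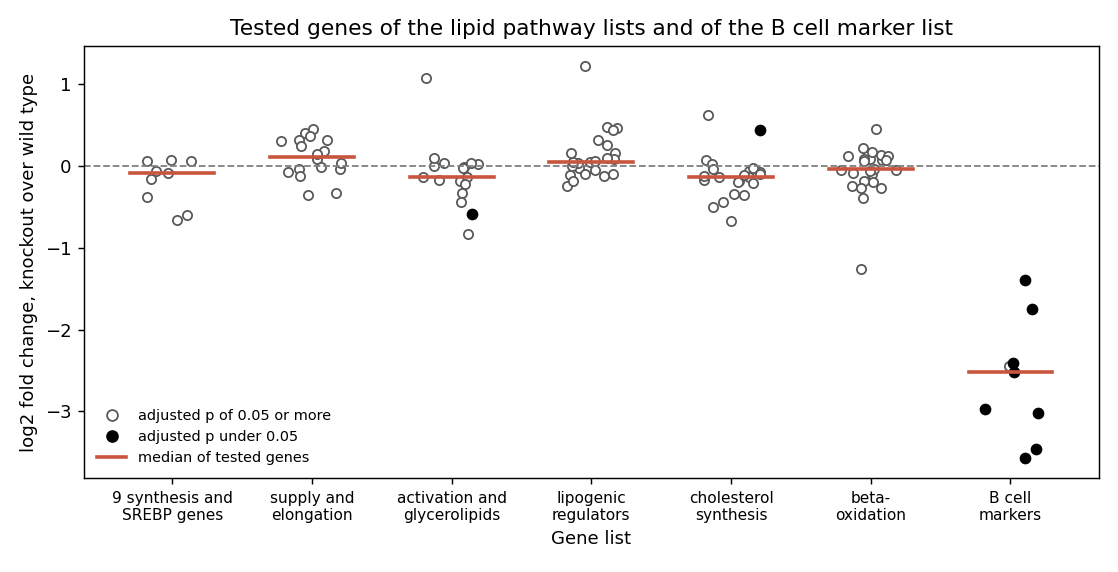
log2 fold change of knockout over wild type for the tested genes of each list; filled points have an adjusted p under 0.05 and red lines are list medians. Among the lipid lists only Dgat1 (-0.59) and Acat2 (0.45) are filled, while 8 of 9 tested B cell markers are filled and negative.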

How the data were processed

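Counts were deposited by the authors as 1 table per library with 1 row per gene symbol. Libraries were made from 500 ng of total RNA, per the labels' protocols. Bowtie2, edgeR and the mm10 build are named, without role or version, in the submitters' processing notes. The sources used here do not give the annotation, the counting tool or the use of strand. Each table had 23282 rows, and the 35 symbols with several rows had their counts added up. Rn45s, a ribosomal RNA precursor, took 11.6 to 12.3% of counts and was kept.

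The test of genotype was run in edgeR 4.0.16 under R 4.3.3 (TMM, filterByExpr, estimateDisp, two-sided quasi-likelihood F test, genotype as the only term), with Benjamini-Hochberg adjustment over 11464 genes. Genes with an adjusted p under 0.05 are called, and only they are said to have risen or fallen. The SE is the log2 fold change divided by the square root of F. The fit was tested on simulated data. DESeq2 1.42.0, limma-voom (limma 3.58.1), other scalings and filters, a replicate block and leaving out each library were the alternatives. Libraries of a genotype differed by more than Poisson sampling noise (chi-square per degree of freedom 5.40 and 5.45), and none was merged. Positions and overlaps were matched by symbol to GENCODE vM21 on GRCm38, which mm10 denotes.

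The 9 genes and all lists were chosen with earlier results of these data known. Genes named beside the 9 are Pdk4 and its paralogues, list members past the test or else the 3 with the smallest p, the 5 nearest in profile, overlapping genes and markers. Scd3, Scd4 and Insig2 were named as paralogues.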

Additional observations from a re-analysis of the deposited data

How the results depend on the processing

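Across the 13 alternatives, the negative estimates of Acly, Scd1 and Insig1 kept their sign, and no call was made among the 9 genes except that of Acly with no filter (log2 fold change -0.37) and with the stricter filter of 5 CPM in 2 libraries (-0.38), when 1 of the 9 was called. Leaving out 1 library moved the log2 fold change of Acaca between -0.40 and 0.32, Fasn between -0.022 and 0.15, Scd2 between -0.032 and 0.18, Elovl6 between -0.21 and 0.032, Srebf1 between -0.071 and 0.21 and Srebf2 between -0.32 and 0.0024. In the same way the count of called genes was between 170 (without knockout replicate 1) and 293, and was 184 without wild-type replicate 2, against 305. The calls of glycerolipid and of cholesterol synthesis genes were each 0 to 1. Medians ran from -0.27 to -0.0058 for the 9 genes, -0.060 to 0.18 for supply and elongation, -0.014 to 0.17 for regulators, -0.16 to -0.072 for glycerolipid assembly, -0.17 to -0.10 for cholesterol synthesis and -0.061 to -0.0097 for beta-oxidation. With no filter the glycerolipid median was -0.021, as 20 genes were tested. The cause of the other shifts was not tested. With 1 library left in a genotype, that library is assumed to vary like the other genotype.

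Replicate numbers are not tied to animals or days by the labels, and the deviations of same-numbered libraries correlated at -0.02 over 8075 genes. With the replicate block 260 genes were called, 0 of the 9 among them, and Acly had an adjusted p of 0.0981. Adding 0.5 counts to both genes left the Scd2 to Scd1 difference at 0.71. Scd1 and Insig1 had the fewest counts of the 9, at 65 to 180 per library.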
